A study of Mus musculus with 6 samples.

Results

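The genes that build and feed the DNA replication machinery were followed in ADC106, a mouse angiosarcoma cell line, after transfection of an miR-497 mimic. They were taken as the rows of the raw count table whose mouse Ensembl identifier carries the symbol of a licensing factor, helicase subunit, polymerase, clamp, clamp loader, single-strand binding protein, fragment-joining enzyme or nucleotide-supply enzyme. All 47 such genes had a row among the 55401 identifiers of the table, and 44 had enough reads to be tested. Angiosarcoma is a malignant tumour of the cells that line vessels, and a mimic is a short synthetic RNA duplex that loads a chosen microRNA into Argonaute proteins. The control group carried a mimic labelled NC and the genotype label WT. The other group carried the miR-497 mimic and the genotype label miR-497 overexpression. Both mimics were given at 12.5 nM and RNA was taken on day 3 from 3 libraries per group, and poly(A) RNA was sequenced. All libraries came from this cell line, and the labels do not say whether they stem from separate cultures, so p-values measure only the spread between these libraries.

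Replication starts when the origin recognition complex, Cdc6 and Cdt1 load the MCM helicase ring onto DNA during G1, a step called licensing, which geminin blocks later in the cycle. In S phase the kinase Cdc7-Dbf4, Mcm10, Cdc45 and the GINS complex turn loaded rings into active helicases. Polymerase alpha with primase then lays primers, polymerases epsilon and delta extend them on the Pcna clamp that replication factor C loads, and the RPA complex coats the exposed strand. Most of these genes are transcribed in late G1 under E2F factors, which the retinoblastoma protein restrains. Members of the miR-16 family, to which miR-497 belongs, are known for targeting G1 cyclins and Cdk6.

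The mature mouse strand and its matches in the replication genes are shown because the results by complex below refer to them. RefSeq (GRCm38.p6) lists mmu-miR-497a-5p at chr11:70234730-70234751, plus strand, and the capitals mark its seed, bases 2 to 8. The labels do not give the sequence of the mimic itself.
mmu-miR-497a-5p: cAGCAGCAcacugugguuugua

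Of the 47 genes, 9 held a 7mer or 8mer complementary to that seed in the longest annotated 3' UTR, with 10 sites in all. Coordinates are on GRCm38, and each site is printed 5′ to 3′ on the strand of its transcript in GENCODE M21, with the matched bases in capitals. All of them lie in annotated 3' UTR, which is exonic. A site is a match of letters and not a measured binding event.
Pold3, 7mer-m8, chr7:100083528-100083556, minus strand: cctggatcagaTGCTGCTctgccatcacg
Cdc7, 7mer-m8, chr5:106983365-106983393, plus strand: ccacttactgtTGCTGCTgtgtgttgtaa
Orc2, 7mer-m8, chr1:58464137-58464165, minus strand: tgtggcccagcTGCTGCTcctcagtaaga
Cdc6, 7mer-m8, chr11:98923628-98923656, plus strand: aggcctttcctTGCTGCTttttctcaccg
Mcm5, 7mer-A1, chr8:75127654-75127682, plus strand: ttgagtccctgGCTGCTAaggtcagtgga
Rfc1, 8mer, chr5:65262332-65262361, minus strand: cctgaccacatTGCTGCTAtaggtagtctg
Rfc5, 7mer-A1, chr5:117378357-117378385, minus strand: ttgaataggtaGCTGCTAccgctgtcaaa
Rpa1, 7mer-A1, chr11:75300485-75300513, minus strand: gggacatccagGCTGCTAcagagcatggc
Rpa1, 7mer-m8, chr11:75299735-75299763, minus strand: ggagaaatggcTGCTGCTggctcacagtt
Gins2, 8mer, chr8:120580993-120581022, minus strand: agagtacagacTGCTGCTAtaagtggctaa
The sites of Rfc1 and Gins2 were 8mers, and the others were 7mers. Rpa1 was the member with more than 1 site.

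Most replication genes were lower with miR-497. Of the 44 tested, 28 were lower and 2 were higher by edgeR's quasi-likelihood test (Benjamini-Hochberg over the 14661 genes tested, threshold 0.05), and 14 were not called. The share of members called lower was 63.6%, beside 26.0% of all genes tested, and for higher calls all genes gave 23.8%. The falls were moderate. Pold3 and Cdc7 were lower by at least 2-fold. These 2 of the 44 are a share near the 5.19% of all genes tested that met this rule. The median log2 fold change (miR-497 over NC) was -0.37 over the 44 genes and -0.019 over all genes tested. In 30 members all 3 miR-497 values lay below all 3 NC values, which 29.6% of all genes tested also did. In 3 members the miR-497 values all lay above, as in 27.8% of all genes tested, and in 11 the groups overlapped.

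The cumulative plot of fold changes sets the 44 genes beside all genes tested.

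**Figure D1:**
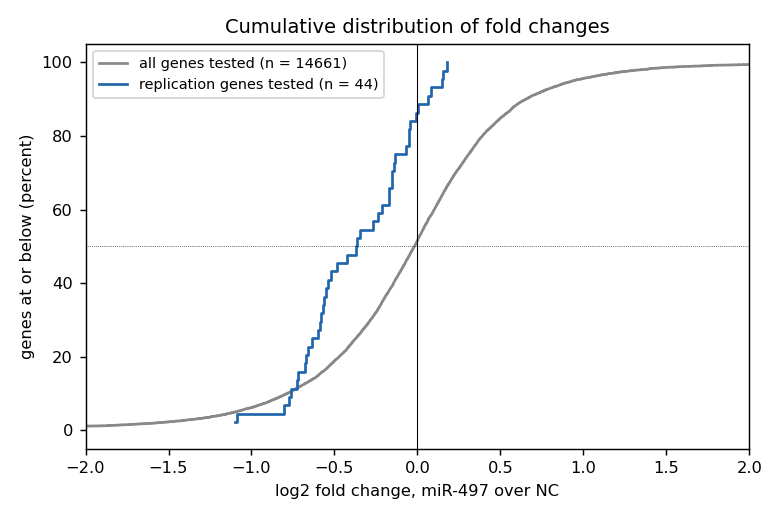
Cumulative share of genes (percent, vertical axis) at or below each log2 fold change, miR-497 over NC (horizontal axis), for the 44 replication genes and for all 14661 genes tested. The replication curve lies to the left over most of its range and crosses the 50 percent line at -0.37, against -0.019 for all genes.

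Levels below are CPM, counts scaled to library size after TMM, a correction for library composition, and are listed for libraries 1, 2 and 3 of each group. Total counts ran from 25777676 to 36159499 per library. The lowest count behind any tested member was 36, for Orc1 in NC library 3. Averaged over the 44 genes, log2 CPM stood -0.0016, -0.0042 and 0.0058 from the NC mean with NC. With miR-497 the same average stood at -0.33, -0.33 and -0.45. The third miR-497 library was the lowest, and no miR-497 library reached the NC range. The endothelial label was checked with 11 marker genes, all of which were tested, and their summed level was 9640 to 10300 CPM with NC and 9380 to 9870 CPM with miR-497. Within that sum, 3 markers were lower (Pecam1, Flt1 and Eng, at -0.52, -0.40 and -0.39 on the log2 scale) and 7 were higher, up to 1.02 for Cldn5 and 1.03 for Emcn. Leukocyte markers summed to 8.21 to 8.6 CPM with NC and 15 to 19.8 CPM with miR-497, mostly from Cd68. The 4 epithelial markers summed to 0.394 to 1.12 CPM. The 6 fibroblast markers summed to 307 to 326 CPM with NC and 451 to 547 CPM with miR-497, with Col1a1 and Col1a2 higher (0.84 and 1.15 on the log2 scale), Pdgfrb and Thy1 lower (-0.37 and -0.47), Pdgfra not called and Dcn not tested. No epithelial, fibroblast or endothelial marker was at 0 in all libraries. Mitochondrially encoded genes took 2.03% to 2.15% of counts with NC and 2.94% to 3.77% with miR-497. The part of these shifts in the results was not tested. In bulk RNA, fewer cells in S phase and less of each transcript per cell cannot be told apart.

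**Figure D2:**
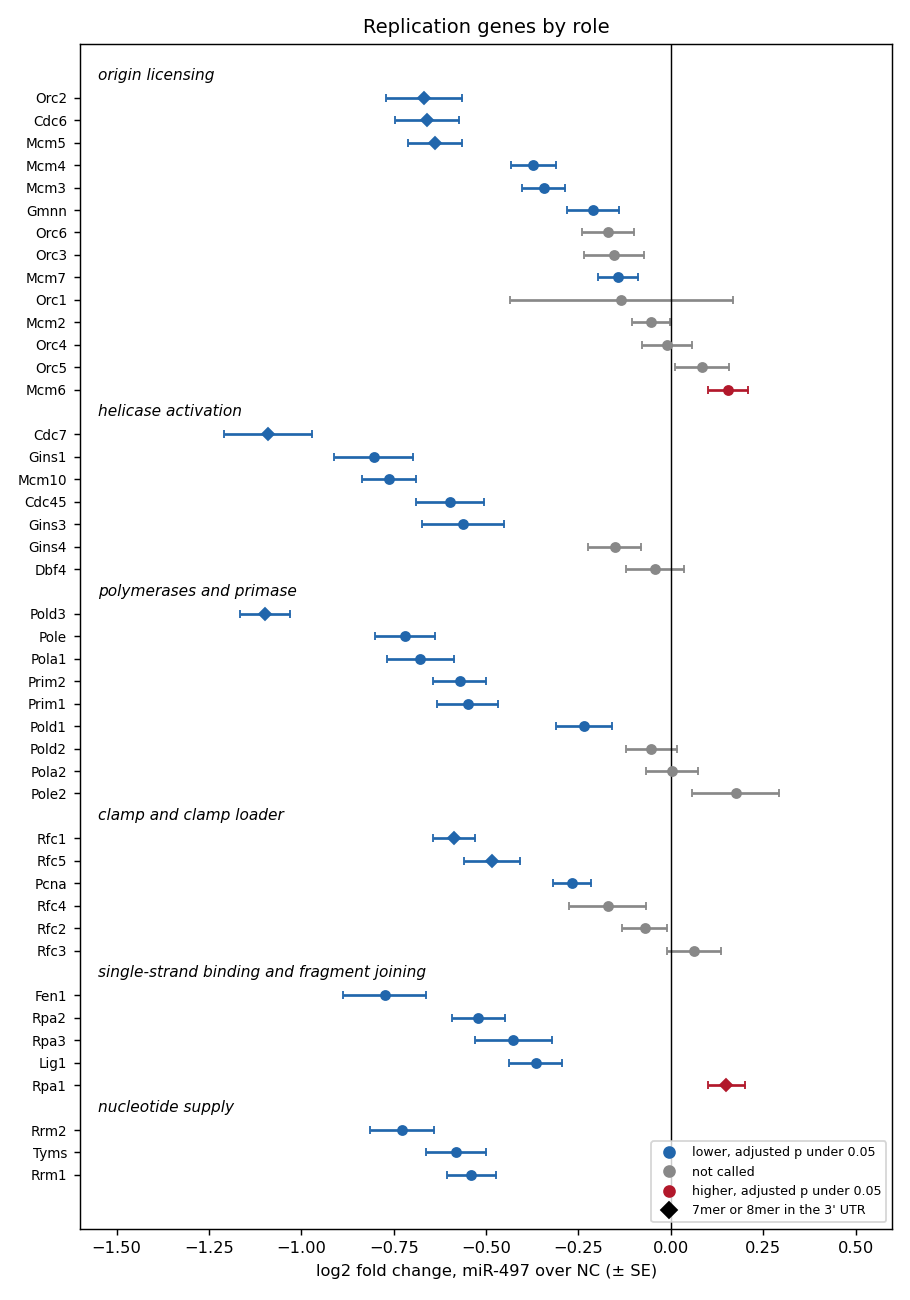
Log2 fold change (miR-497 over NC, horizontal axis) with its standard error for each of the 44 tested replication genes (vertical axis), grouped by role and coloured by call, with diamonds for genes that hold a 7mer or 8mer site. Each role spans genes from about 0 to well below it, except nucleotide supply, where the 3 tested genes lie between -0.73 and -0.54.

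Licensing genes ranged from -0.67 to 0.16 in log2 fold change, and small falls lay on both sides of the threshold. Mcm7 was called lower at -0.14, while Orc6 and Orc3 were not called at -0.17 and -0.15. Of 14 tested, 7 were lower, 1 was higher and 6 were not called, with a median log2 fold change of -0.16. Orc2 (ENSMUSG00000026037, chr1:58462771-58505109, minus strand), a core subunit of the origin recognition complex, had 37.8, 32.8 and 36.6 CPM with NC and 25.03, 24.2 and 18.2 CPM with miR-497. The groups did not overlap, and its log2 fold change was -0.67 (± 0.103 SE, adjusted p = 4.1e-05 in edgeR). An opposite-strand gene covers 29.8% of its exon bases, and whether counting used strand is not given in the sources used here. Leaving out miR-497 library 3, its lowest, gave -0.54 (adjusted p = 6.1e-05 in edgeR).

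The other origin recognition subunits were not called. Orc1, the subunit that comes and goes with the cell cycle, was scarce, at 2.47, 2.35 and 1.28 CPM with NC and 1.83, 1.83 and 1.94 CPM with miR-497. Its NC library 3 was far under the other two, and the log2 fold change of -0.13 (approximate 95% interval -0.73 to 0.46, adjusted p = 0.74 in edgeR) leaves a fall or a rise possible. It was -0.36 (adjusted p = 0.33 in edgeR) without that library and 0.015 (adjusted p = 0.98 in edgeR) without NC library 1. Orc3 had 47.9, 45.7 and 45.4 CPM with NC and 47.2, 40.5 and 37.4 CPM with miR-497, and miR-497 library 1 lay inside the NC range. Its log2 fold change was -0.15 (approximate 95% interval -0.31 to 0.0067, adjusted p = 0.13 in edgeR), and without miR-497 library 1 it was -0.25 (adjusted p = 0.012 in edgeR). Orc4 had 71.7, 67.95 and 62.5 CPM with NC and 67.4, 70.3 and 63.1 CPM with miR-497, overlapping throughout, with -0.011 (approximate 95% interval -0.14 to 0.12, adjusted p = 0.91 in edgeR). Orc5 had 33.97, 31.7 and 30.4 CPM with NC and 35.2, 33.9 and 32.9 CPM with miR-497. The groups overlapped, with the miR-497 values toward the upper end and a log2 fold change of 0.084 (approximate 95% interval -0.057 to 0.23, adjusted p = 0.36 in edgeR). Orc6, the most abundant subunit per kilobase of exon, had 68.99, 68.1 and 63.6 CPM with NC and 62.95, 61.6 and 53.98 CPM with miR-497. All 3 miR-497 values were lower, but by little, and the log2 fold change of -0.17 (approximate 95% interval -0.31 to -0.032, adjusted p = 0.055 in edgeR) lay just outside the threshold; with 1 library left out its adjusted p ran from 0.035 to 0.25.

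Cdc6, the ATPase that joins the origin complex to the MCM ring, had 43.9, 44.9 and 47.5 CPM with NC and 28.4, 32.7 and 25.1 CPM with miR-497. The 3 miR-497 values were all lower, with a log2 fold change of -0.66 (± 0.0873 SE, adjusted p = 8e-06 in edgeR). Cdt1, its loading partner, was listed at 0 in every library, as were Gins2 and Tk1. These 3 genes were not tested. A count of 0 allows up to 3 counts, or 0.0822 to 0.119 CPM depending on the library, for counting error only. How the table came to list these 3 genes at 0 was not tested, so the zeros are not read as a lack of transcript. Gmnn (geminin), the Cdt1 inhibitor, averaged 37.2 ± 2.09 CPM with NC and 32.2 ± 0.284 CPM with miR-497 (SD, n = 3 each). It was slightly lower, at -0.21 (± 0.0705 SE, adjusted p = 0.02 in edgeR) on the log2 scale. The call was lost without NC library 1, at -0.17 (adjusted p = 0.075 in edgeR), and without miR-497 library 2, at -0.21 (adjusted p = 0.06 in edgeR). Upper-quartile scaling lost it too.

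The 6 subunits of the MCM ring, which sit in the helicase in equal numbers, did not move together. Mcm5 (ENSMUSG00000005410, chr8:75109569-75128439, plus strand) had 128, 128 and 136 CPM with NC and 85.4, 93.5 and 72.8 CPM with miR-497. It was lower in all 3 miR-497 libraries, with a log2 fold change of -0.64 (± 0.0741 SE, adjusted p = 1.9e-06 in edgeR). Mcm4 and Mcm3 had smaller falls, with log2 fold changes of -0.37 (± 0.0617 SE, adjusted p = 8.4e-05 in edgeR) and -0.34 (± 0.0577 SE, adjusted p = 9.3e-05 in edgeR). Mcm7, which hosts the miR-25 and miR-93 hairpins, was called lower at -0.14 (± 0.0545 SE, adjusted p = 0.037 in edgeR), but 12 of 15 alternative settings lost that call, and with single libraries left out its adjusted p ran from 0.018 to 0.21. Mcm2 had 256, 266 and 277 CPM with NC and 261, 259 and 251 CPM with miR-497. These groups overlapped, with -0.053 (approximate 95% interval -0.15 to 0.048, adjusted p = 0.41 in edgeR). Mcm6 had 258, 262 and 262 CPM with NC and 307, 289 and 276 CPM with miR-497. It was the reverse of Mcm5, with every miR-497 value above every NC value and a log2 fold change of 0.16 (± 0.0534 SE, adjusted p = 0.023 in edgeR). The rise was smaller than most falls, and the call was lost in 4 of the 6 fits that left out 1 library (NC library 1 or 2, miR-497 library 1 or 2), with adjusted p from 0.0081 to 0.1. Per kilobase of exon, the log2 ratio of Mcm5 to Mcm6 was -0.79, -0.81 and -0.72 with NC and -1.62, -1.40 and -1.70 with miR-497. Here and below, each ratio sets the subunit with the lowest fold change of its complex over the one with the highest. A lower mean ratio with miR-497 therefore follows from that choice.

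The promoters of Mcm5 and Mcm6 are printed because the pair moved in opposite directions while both hold the same kind of E2F match. RefSeq promoters of 300 bases around the annotated start (GRCm38.p6) were searched on both strands for TTTCCCGC, TTTCGCGC, TTTGCCGC and TTTGGCGC, and capitals mark the matches. In both genes a TTTGGCGC on one strand overlaps a TTTCGCGC on the other. In Mcm5 the TTTCGCGC is at position -153 from the start and the TTTGGCGC at -149. In Mcm6 the TTTGGCGC is at -110 and the TTTCGCGC at -106. Mcm6 has a further TTTGGCGC at -47.
Mcm5, chr8:75109259-75109558, plus strand: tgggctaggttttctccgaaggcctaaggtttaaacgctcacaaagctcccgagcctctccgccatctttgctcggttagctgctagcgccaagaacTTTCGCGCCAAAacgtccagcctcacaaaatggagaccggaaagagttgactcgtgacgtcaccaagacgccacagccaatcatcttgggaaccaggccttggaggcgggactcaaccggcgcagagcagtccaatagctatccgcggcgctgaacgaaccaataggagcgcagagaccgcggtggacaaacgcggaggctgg
Mcm6, chr1:128359656-128359955, minus strand: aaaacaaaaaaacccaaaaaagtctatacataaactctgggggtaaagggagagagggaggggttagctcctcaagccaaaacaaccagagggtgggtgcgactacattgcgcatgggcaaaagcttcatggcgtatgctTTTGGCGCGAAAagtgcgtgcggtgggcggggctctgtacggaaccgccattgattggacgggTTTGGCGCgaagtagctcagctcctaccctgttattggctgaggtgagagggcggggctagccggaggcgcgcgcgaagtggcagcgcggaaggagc

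Promoters were available for 39 of the 47 genes, and 15 of them (38.5%) held an E2F match. Among all 27025 genes with a promoter entry the share was 2.6%, among 10816 tested genes 4.38%, and among all 32851 promoters of that length 2.26%. The CCAAT box (CCAAT) was in 59% of the 39 genes, 41.1% of all genes and 43.1% of tested genes. The CHR element (TTTGAA) was in 17.9% of the 39 genes, 20.2% of all genes and 14.9% of tested genes. No CCAAT or CHR word contains or is part of an E2F word, while E2F words on opposite strands can overlap, as shown. The 14 tested genes with a match had a median log2 fold change of -0.29, with 9 called lower, and the 23 without had -0.48, with 14 called lower. A match is a description of letters, and its absence says nothing about E2F binding.

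Genes that switch the loaded helicase on had a lower median than those that load it. Of 7 tested, 5 were lower and 2 were not called, with a median log2 fold change of -0.60; the difference between the roles was not tested. Cdc7 (ENSMUSG00000029283, chr5:106964322-106984432, plus strand), the catalytic subunit of the kinase that phosphorylates the MCM ring, had 22.1, 21.99 and 20.2 CPM with NC and 7.96, 10.9 and 11.2 CPM with miR-497. The groups were far apart, with miR-497 library 1 the lowest. The miR-497 mean was 47% of the NC mean, and the log2 fold change was -1.09 (± 0.119 SE, adjusted p = 9.5e-07 in edgeR). Dbf4, which activates Cdc7, had 51.5, 54.01 and 52.3 CPM with NC and 53.6, 55.05 and 44.5 CPM with miR-497. The miR-497 libraries fell on both sides of the NC range, and the log2 fold change was -0.044 (approximate 95% interval -0.20 to 0.11, adjusted p = 0.68 in edgeR). The log2 ratio of Cdc7 to Dbf4 per kilobase of exon was -0.16, -0.24 and -0.31 with NC and -1.69, -1.28 and -0.92 with miR-497.

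Mcm10, which helps the activated helicase separate its rings, had 42.4, 46.4 and 47.2 CPM with NC and 27.1, 27.3 and 25.8 CPM with miR-497. The fall was even across libraries, with a log2 fold change of -0.76 (± 0.0722 SE, adjusted p = 1.8e-07 in edgeR). Cdc45, a helicase cofactor, was lower, at -0.60 (± 0.0911 SE, adjusted p = 3.5e-05 in edgeR) on the log2 scale. Among GINS subunits, Gins1 had 16.2, 17.8 and 17.2 CPM with NC and 10.1, 10.4 and 8.79 CPM with miR-497, with no overlap and a log2 fold change of -0.80 (± 0.107 SE, adjusted p = 8.2e-06 in edgeR). Gins3 followed at -0.56 (± 0.111 SE, adjusted p = 0.00043 in edgeR). Gins4 had 43.3, 47.9 and 42.98 CPM with NC and 40.9, 41.3 and 38.7 CPM with miR-497. Its miR-497 values were all lower, but the difference of -0.15 (approximate 95% interval -0.29 to -0.012, adjusted p = 0.088 in edgeR) did not pass the threshold. Gins2 had a site and was listed at 0, and 67.3% of its exon bases lie under the opposite-strand gene Gse1. For Cdt1 and Tk1, also listed at 0, that share was 0% and 1.6%, while Fen1, at 84.2%, had counts in every library. The part of such overlap in the zeros was not tested.

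Polymerase and primase genes contained the deepest fall of all 44. Of 9 tested, 6 were lower and 3 were not called, with a median log2 fold change of -0.55. Pold3 (ENSMUSG00000030726, chr7:100082111-100121565, minus strand), the accessory subunit that ties polymerase delta to the Pcna clamp, had 77.7, 74 and 76.01 CPM with NC and 34.2, 37.96 and 34.2 CPM with miR-497. The miR-497 values were tightly grouped, and their mean was 46.7% of the NC mean, with a log2 fold change of -1.10 (± 0.0675 SE, adjusted p = 1.1e-09 in edgeR). The catalytic subunit Pold1 had the smaller fall, at -0.24 (± 0.0749 SE, adjusted p = 0.015 in edgeR) on the log2 scale, and without miR-497 library 3 it was not called, at -0.19 (adjusted p = 0.058 in edgeR). That call was also lost with GC and length offsets. Pold2, the subunit that links the other two, had 46.97, 52.3 and 52.6 CPM with NC and 48.5, 50.5 and 47.4 CPM with miR-497. These groups overlapped, with -0.053 (approximate 95% interval -0.19 to 0.083, adjusted p = 0.56 in edgeR). The log2 ratio of Pold3 to Pold2 per kilobase was -0.55, -0.78 and -0.75 with NC and -1.78, -1.69 and -1.75 with miR-497. Since the pair was picked by its fold changes, this drop follows from the choice.

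Polymerase epsilon was also split, but here the catalytic subunit was the lower of the 2 tested members. Pole, the catalytic subunit of the leading-strand enzyme, had 55.5, 54.3 and 58.4 CPM with NC and 33.4, 37.96 and 30.6 CPM with miR-497. It was lower in every miR-497 library, with a log2 fold change of -0.72 (± 0.0802 SE, adjusted p = 1.2e-06 in edgeR). Pole2, its partner subunit, had 10.5, 8.87 and 10.2 CPM with NC and 11.5, 10.7 and 11.2 CPM with miR-497. All miR-497 values were above the NC values, with a log2 fold change of 0.18 (approximate 95% interval -0.055 to 0.41, adjusted p = 0.23 in edgeR) that was not called. The log2 ratio of Pole to Pole2 per kilobase, again a pair ordered by fold change, was 0.44, 0.66 and 0.57 with NC and -0.41, -0.13 and -0.50 with miR-497. Among genes outside the 47, the small epsilon subunits Pole3 and Pole4 were lower, at -0.60 (± 0.0716 SE, adjusted p = 2.5e-06 in edgeR) and -0.78 (± 0.0677 SE, adjusted p = 6.8e-08 in edgeR) on the log2 scale. The delta subunit Pold4, also outside the 47, was not called, at 0.20 (approximate 95% interval -0.048 to 0.45, adjusted p = 0.2 in edgeR). Pole3, Pole4 and Pold4 were named after their values were seen.

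In the primer-making complex, Pola1, the polymerase alpha catalytic subunit, had 47.4, 43.9 and 49.8 CPM with NC and 30.7, 32.6 and 24.9 CPM with miR-497, with a log2 fold change of -0.68 (± 0.0913 SE, adjusted p = 9.9e-06 in edgeR). The primase subunits Prim2 and Prim1 were lower too, with log2 fold changes of -0.57 (± 0.0716 SE, adjusted p = 4.4e-06 in edgeR) and -0.55 (± 0.0820 SE, adjusted p = 2.9e-05 in edgeR). Pola2, the regulatory B subunit, had 54.8, 55.02 and 49.4 CPM with NC and 50.3, 55.6 and 53.6 CPM with miR-497. The groups overlapped, at 0.0028 (approximate 95% interval -0.13 to 0.14, adjusted p = 0.98 in edgeR), while the other 3 subunits were all lower.

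Clamp and clamp loader genes were lower in 3 of 6 cases and not called in 3, with a median log2 fold change of -0.22. Rfc1, the large subunit of replication factor C, had 131, 132 and 137 CPM with NC and 87.4, 94.3 and 84.1 CPM with miR-497. No values overlapped and the log2 fold change was -0.59 (± 0.0567 SE, adjusted p = 2.3e-07 in edgeR). Rfc5 had 34.7, 35.5 and 36.4 CPM with NC and 27.1, 25.9 and 23.2 CPM with miR-497, also without overlap, and a log2 fold change of -0.48 (± 0.0765 SE, adjusted p = 5.1e-05 in edgeR). These are the only clamp loader subunits with a site. Rfc2 had 72.8, 67.95 and 70.7 CPM with NC and 69.3, 67.6 and 64.7 CPM with miR-497, overlapping, with -0.07 (approximate 95% interval -0.19 to 0.049, adjusted p = 0.36 in edgeR). Rfc3 had 28.7, 30.4 and 32.7 CPM with NC and 31.5, 31.3 and 33.1 CPM with miR-497, again overlapping and slightly upward, with 0.063 (approximate 95% interval -0.082 to 0.21, adjusted p = 0.51 in edgeR). Rfc4 had 22.2, 19.99 and 18.5 CPM with NC and 20.7, 16.8 and 16.6 CPM with miR-497. Its first miR-497 library sat among the NC values, and the log2 fold change was -0.17 (approximate 95% interval -0.38 to 0.035, adjusted p = 0.19 in edgeR); without that library it was -0.28 (adjusted p = 0.043 in edgeR). Opposite-strand genes cover 15.1%, 12.7% and 10.7% of the exon bases of Rfc2, Rfc4 and Rfc5.

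Pcna, the sliding clamp and the gene most abundant per kilobase of exon among the 47, had 241, 252 and 239.8 CPM with NC and 211, 199.5 and 198 CPM with miR-497. It was lower without overlap, with a modest log2 fold change of -0.27 (± 0.0514 SE, adjusted p = 0.00034 in edgeR). Pcna has processed copies in the genome, of which Pcna-ps2 had 29 to 34 counts with NC and 13 to 16 with miR-497, and how reads shared between copies were counted is not given in the sources used here.

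Of the 5 genes for strand coating and fragment joining, 4 were lower and 1 was higher, with a median log2 fold change of -0.43. Fen1, the flap endonuclease that trims Okazaki fragments, had 17.3, 20.98 and 23.4 CPM with NC and 11.7, 12.5 and 11.8 CPM with miR-497. The groups did not overlap and the log2 fold change was -0.77 (± 0.112 SE, adjusted p = 2e-05 in edgeR). Opposite-strand genes, Tmem258 among them, cover 84.2% of its exon bases, so this value is uncertain if counting ignored strand. Lig1, which seals the nicks, was lower, at -0.37 (± 0.0728 SE, adjusted p = 0.00047 in edgeR) on the log2 scale.

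The RPA trimer changed unevenly. Rpa2 had 45.3, 47.3 and 49.3 CPM with NC and 35.1, 31.7 and 32.1 CPM with miR-497, with a log2 fold change of -0.52 (± 0.0719 SE, adjusted p = 1.3e-05 in edgeR). Rpa3, the smallest subunit, had 18.8, 21.1 and 18.5 CPM with NC and 15.9, 12.8 and 14.96 CPM with miR-497, with -0.43 (± 0.104 SE, adjusted p = 0.0024 in edgeR). Both were lower in every miR-497 library. Rpa1, the large DNA-binding subunit, had 295, 307 and 317 CPM with NC and 339, 344 and 337 CPM with miR-497. Every miR-497 value was above every NC value, and the log2 fold change was 0.15 (± 0.0512 SE, adjusted p = 0.022 in edgeR) in this gene with 2 sites. The call was lost in 3 of the 6 fits that left out 1 library (NC library 1 or 2, or miR-497 library 2), with adjusted p from 0.018 to 0.12.

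All 3 tested nucleotide-supply genes were lower, with a median log2 fold change of -0.58. Rrm2, the cell cycle-regulated small subunit of ribonucleotide reductase, had 115, 121 and 136 CPM with NC and 85.6, 75.4 and 64.02 CPM with miR-497. Its log2 fold change was -0.73 (± 0.0868 SE, adjusted p = 2.6e-06 in edgeR). Rrm1, the large subunit, had 221, 235 and 251 CPM with NC and 172, 168 and 145 CPM with miR-497, with -0.54 (± 0.0671 SE, adjusted p = 4e-06 in edgeR). Tyms, which makes thymidylate, had 65.1, 69.02 and 74.7 CPM with NC and 51.6, 46.9 and 41.1 CPM with miR-497, with -0.58 (± 0.0816 SE, adjusted p = 1.5e-05 in edgeR). In all 3 genes miR-497 library 3 was the lowest library and no values overlapped. The reductase pair kept closer to its NC proportion than the pairs picked by fold change in the other complexes. Its log2 ratio of Rrm2 to Rrm1 per kilobase was 1.05, 1.04 and 1.11 with NC and 0.98, 0.83 and 0.81 with miR-497.

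**Figure D3:**
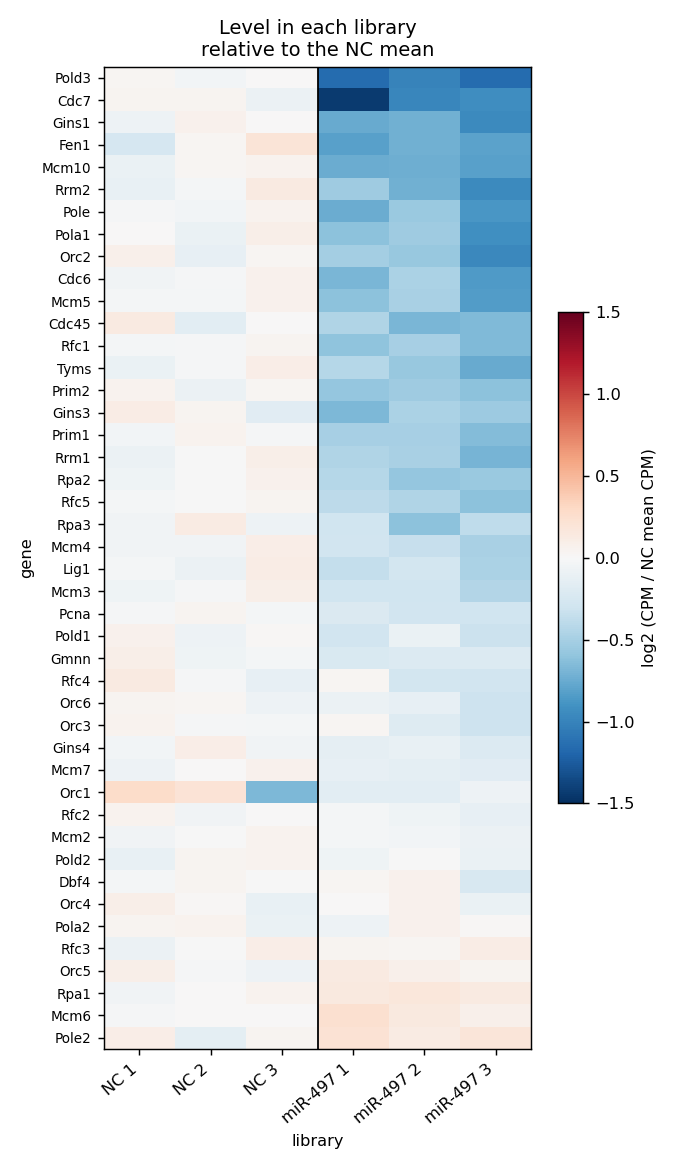
Level of each of the 44 tested genes (rows, ordered by fold change) in each of the 6 libraries (columns), as log2 of CPM over the gene's NC mean, on a colour scale from -1.5 to 1.5. The 3 miR-497 columns are blue in the upper rows and near white from Rfc2 down to Rfc3, and the low value of Orc1 in NC library 3 stands out.

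Set side by side, subunits of the same complex differed. Of the 10 complexes with at least 2 tested subunits, 6 held a tested subunit with a miR-497-5p site, and in 5 of these (origin recognition, MCM, Cdc7-Dbf4, polymerase delta and replication factor C) the subunit with the deepest fall had a site. In RPA the subunit with sites was the one that was higher. With the shortest 3' UTR of each gene the count was 4 of 5 complexes, since the clamp loader then had no site. The other 4 complexes had no site among tested subunits, and their deepest falls, in Gins1, Pole, Rrm2 and Pola1, ran from -0.80 to -0.68 on the log2 scale. These are descriptions without a test, since the genes were chosen with results known.

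Within several complexes the order of levels per kilobase of exon also changed. Exon length here covers all annotated exons of a gene and not the transcript in use, so the order between genes depends on the annotation. Orc2 came second after Orc6 with NC, at 9.26 CPM per kilobase beside 9.04 for Orc4, and after Orc6, Orc4 and Orc3 with miR-497, at 5.83 beside 8.97 for Orc4 and 6.85 for Orc3. Mcm5 passed from above Mcm7 (32.7 and 26.5 CPM per kilobase with NC) to below it (21 and 24 with miR-497). Pold3 likewise passed from above to below Pold1, from 16.5 and 10.7 to 7.70 and 9.07 CPM per kilobase. In the primer-making complex, Pola2 moved to the top, with 6.41 CPM per kilobase beside 5.04 for Prim1, which had led with NC at 7.38 beside 6.40. The order in GINS, replication factor C, RPA, Cdc7-Dbf4 and ribonucleotide reductase was the same in both groups.

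**Figure D4:**
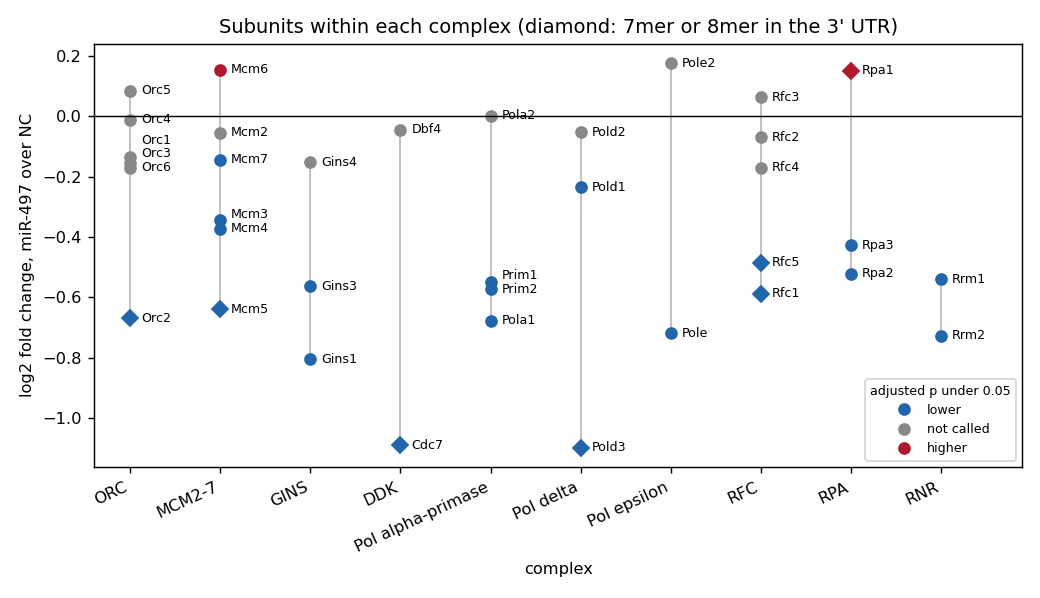
Log2 fold change (miR-497 over NC, vertical axis) of each tested subunit in 10 replication complexes (horizontal axis), coloured by call, with diamonds for subunits that hold a 7mer or 8mer site. Orc2, Mcm5, Cdc7 and Pold3, each the only diamond of its complex, and Rfc1 are the lowest points of their complexes, while Rpa1 is a diamond at 0.15.

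**Figure D5:**
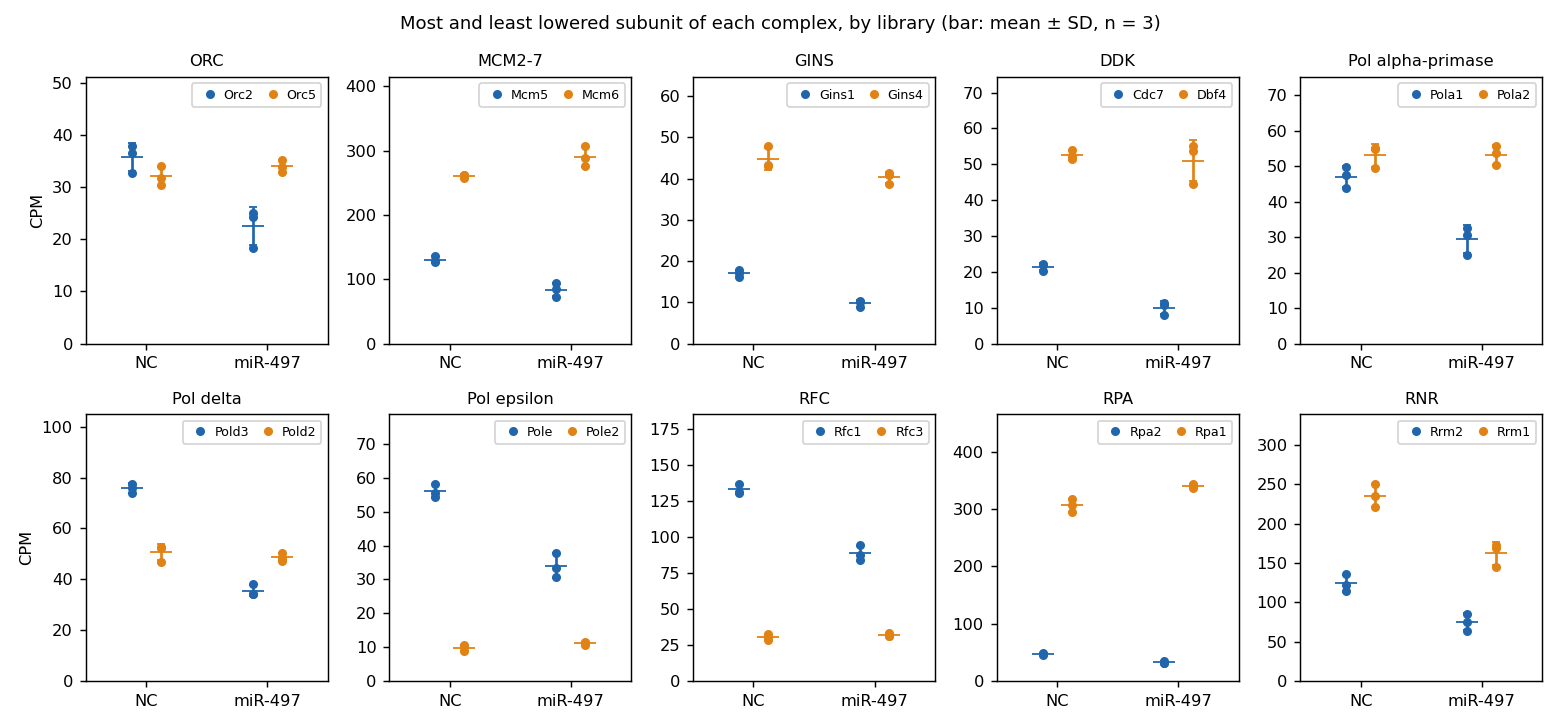
CPM (vertical axis, from 0) in each library for the subunit with the deepest and the subunit with the least fall in each complex, with the mean and SD of 3 libraries per group. The blue subunit drops with miR-497 in every panel, while the orange one stays near its NC level except in ribonucleotide reductase, where both drop.

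A 7mer or 8mer was present in 18.2% of the 44 tested genes and in 28.1% of the 12853 tested genes with a 3' UTR, and the median 3' UTR was 625.5 bases against 1187. Of the 28 lower genes, 7 had a site and 21 had none. In the shortest annotated 3' UTR, the sites of Cdc6, Rfc1 and Rfc5 and 1 of the sites of Rpa1 were missing, which left 5 of the 44 tested genes (11.4%, beside 16.6% of all tested genes) and 4 of the 28 lower genes with a site. The 8 tested genes with a site had a median log2 fold change of -0.65 and ran from -1.10 to 0.15, and the 36 without had a median of -0.25 and ran from -0.80 to 0.18. Over all tested genes the medians were -0.17 with and 0.022 without a site.

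A further list of 49 replication genes outside the 47, covering fork protection, histone chaperones, other polymerase subunits and nucleotide enzymes, gave like counts. Of 48 tested, 32 were lower (66.7%, beside the 26.0% of all genes), 4 were higher and 12 were not called, and Pclaf was listed at 0. The median log2 fold change was -0.44. Asf1b, a histone H3-H4 chaperone, had the largest fall, with 46.8, 51.3 and 53.4 CPM with NC and 21.1, 18.4 and 16.3 CPM with miR-497 and a log2 fold change of -1.44 (± 0.0904 SE, adjusted p = 1.4e-09 in edgeR). Ssrp1, a subunit of the histone chaperone FACT, had 328, 342 and 360.3 CPM with NC and 128, 140.1 and 115 CPM with miR-497, with -1.43 (± 0.0669 SE, adjusted p = 4.5e-11 in edgeR). Samhd1, which degrades deoxynucleotides, had 107, 110.4 and 104 CPM with NC and 46.5, 52.5 and 48.3 CPM with miR-497, with -1.12 (± 0.0628 SE, adjusted p = 3.4e-10 in edgeR). None of these 3 overlapped between groups. Asf1b and Ssrp1 have 1 site each, and Samhd1 has none. Supt16, the FACT partner of Ssrp1, was named after its values were seen, and had 120.5, 120.4 and 134 CPM with NC and 129, 136 and 128 CPM with miR-497, overlapping, with 0.067 (approximate 95% interval -0.044 to 0.18, adjusted p = 0.35 in edgeR).

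The rises in that list were smaller. Rrm2b, a reductase subunit used outside S phase, had 28.9, 34.5 and 32.96 CPM with NC and 43.2, 43.1 and 38.5 CPM with miR-497, with a log2 fold change of 0.37 (± 0.0809 SE, adjusted p = 0.001 in edgeR). Rnaseh2a, the catalytic subunit of an enzyme that removes ribonucleotides from DNA, had 24.8, 28.98 and 27.2 CPM with NC and 35.2, 32.04 and 34.6 CPM with miR-497, with 0.33 (± 0.0785 SE, adjusted p = 0.002 in edgeR). Dtymk, which phosphorylates thymidylate, had 49.1, 48.04 and 44.4 CPM with NC and 60.2, 57.9 and 56.9 CPM with miR-497, with 0.30 (± 0.0666 SE, adjusted p = 0.0011 in edgeR). All 3 were higher in every miR-497 library than in any NC library, while Rrm2, the S-phase counterpart of Rrm2b, was lower. The fourth higher gene was the mitochondrial kinase Tk2, at 0.27 (± 0.0868 SE, adjusted p = 0.017 in edgeR), whose call was lost without NC library 3, at 0.21 (adjusted p = 0.076 in edgeR), and without miR-497 library 2, at 0.27 (adjusted p = 0.054 in edgeR).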

How the data were processed

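Per the submitters' processing notes, STAR 2.5.4b, featureCounts, Subread 1.6.1, edgeR 3.32.1 and GRCm38 were used, with no role or order stated. The authors deposited raw gene counts (whole numbers, no normalization) for 55401 Ensembl identifiers in 6 libraries (3 per group, grouped by sample title). The annotation release, strand setting and multiple-alignment rule are not given in the sources used here. Symbols, exon lengths and 3' UTRs came from GENCODE M21 (GRCm38), which matched 55141 identifiers. Exon length was the union of all annotated exons of a gene.

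Counts were tested with edgeR 4.0.16 in R 4.3.3 (filterByExpr with a minimum count of 10 and total of 15, TMM, quasi-likelihood F-test, group as the only term). Benjamini-Hochberg adjustment covered 14661 genes, and genes with an adjusted p under 0.05 were called. The standard error is the log2 fold change divided by the square root of F, and approximate 95% intervals are 1.96 standard errors to each side. Sites were a 7mer-m8, 7mer-A1 or 8mer in the longest 3' UTR; sequences were searched in Python 3.11.15. The test script was checked on simulated counts with 200 changed genes. It called 70% of the 100 genes changed by 0.5 on the log2 scale and 94% of the 100 changed by 1, with 11 false calls. The simulated counts shared a common spread across genes, and far fewer genes changed than were called in the data (3817 lower and 3490 higher). These rates therefore need not hold for the real counts.

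The genes and lists were chosen with earlier results of these data known. All 47 are named; values per library are given in each role for the 3 largest absolute changes and for genes higher, not called, not tested or overlapping. Of the further list, the 3 largest falls and rises among called genes are named. Alternatives were other scalings (DESeq2 size factors, upper quartile), filters (none, mean count of 50), tests (DESeq2 1.42.0 Wald, limma 3.58.1 voom), a replicate block, GC and length offsets, and each library left out.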

Additional observations from a re-analysis of the deposited data

How the results depend on the processing

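Of 660 pairs of a replication gene and an alternative setting, 623 kept their side of the threshold, 27 lost a call and 10 gained one, and no called gene changed direction. Of the 28 lower genes, 25 stayed lower at the threshold under all 15 alternatives; the exceptions were Mcm7, Gmnn and Pold1. The number of lower members ran from 26 to 30. The median log2 fold change of the members moved from -0.37 to -0.32 with upper-quartile scaling, to -0.33 with GC and length offsets and to -0.33 with the offsets and the replicate block, and ran from -0.40 to -0.31 with single libraries left out; the cause was not tested. The 2 higher calls, Mcm6 and Rpa1, numbered 0 to 2 with 1 library left out and 3, with Orc5 added, under GC and length offsets. Where edgeR gave 0, 1 to 2 members were higher at an unadjusted p under 0.05, and DESeq2 and limma voom each called 2. Counting only 8mers left 2 of the 9 members with a site, and the shortest 3' UTR left 6.

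The replicate numbers are shared by the groups, but libraries with equal numbers correlated at -0.12, -0.035 and -0.13 across genes after subtracting group means, and 0 of 6 libraries correlated best with its own number, so the numbers were not taken to pair libraries. With the replicate block, 27 members were lower, all of them among the 28, and 0 were higher in edgeR (2 at an unadjusted p under 0.05). Over all genes the block gave 3563 lower and 3177 higher, against 3817 and 3490. Depth limits Orc1, with 36 to 86 counts per library.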
